A study of Mus musculus with 4 samples.

Results

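The spots described here held few alveolar transcripts, and lay in sections cut through the upper pulmonary branches. They stand here for the upper airway, which the study itself outlined by clusters of spots and their place in the section. They were compared with the parenchyma spots of the same sections. On a Visium slide each spot is a barcoded area whose primers bind mRNA from overlying tissue, so it can hold several cells of different types, and each bound molecule is counted once through its unique molecular identifier (UMI). Membership was set by measured values. The UMIs of the surfactant genes Sftpc and Sftpb and of Hopx, Cldn18, Tmem100 and Calcrl were summed per spot, and a spot with at least 500 UMIs and a sum under 13824 counts per 1000000 UMIs of the spot (CPM) was assigned to the upper airway and otherwise to the parenchyma. The split is at 50% of the level over all spots, 27648 CPM. This gave 703 upper airway spots of 4933 in all, with 149 in NV replicate 1, 122 in NV replicate 2 and 432 in V replicate 2, against 671, 338 and 1610 parenchyma spots. V replicate 1 had 0 such spots of 1561 with enough UMIs, which allows a share of up to 0.192%, and 50 spots of the 4 sections had fewer than 500 UMIs. Since markers of bronchi were not the leading genes of these spots, they are called marker-low spots below.

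The study addressed lung injury in mice that inhaled the aerosol of flavoured vape juice. Vaped (V) C57BL/6J mice, from 6 to 8 weeks old at the start, were exposed in whole body chambers during 9 weeks, 4 h on each of 5 days a week, to aerosol of Peach Ice juice from JUUL pens, and the non-vaped (NV) group comprised control mice of the same strain. The labels name no altered allele in either group. Each section came from 1 mouse, with 1 male (replicate 1) and 1 female (replicate 2) in each group. The labels state that all samples were processed together. Because V replicate 2 was the only V section with both zones, exposure cannot be told apart from that mouse, that section or its plane of cut. The comparison was therefore made between zones within each of the 3 sections.

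The hilum is the place where the main bronchus, the pulmonary artery and veins, lymphatics and nerves enter the lung. Large airways are lined by club and ciliated cells with basal cells below them, and their wall holds smooth muscle and, near the main bronchus, cartilage. In mice, atrial-type cardiac muscle extends from the left atrium along the pulmonary veins into the lung, and fat lies around the vessels outside it. The parenchyma is made of alveoli, with type 1 cells (AT1), the surfactant-making type 2 cells (AT2), capillaries and thin fibroblasts. The genes of the rule are alveolar: Sftpc and Sftpb encode surfactant proteins, Hopx and Cldn18 mark AT1 cells most strongly, and Tmem100 and Calcrl are found in lung endothelium.

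Few spots lay close to the split, though more lay in a wider band around it. Between 25% and 75% of the level over all spots were 20.85%, 15.43% and 17.87% of spots in NV replicate 1, NV replicate 2 and V replicate 2. Under 25% were 28 of 149 marker-low spots in NV replicate 1, 80 of 122 in NV replicate 2 and 195 of 432 in V replicate 2. In each section with both zones, a group of spots at low marker levels was separated by sparser values from a broader group around the level over all spots, and 25 of 820, 13 of 460 and 58 of 2042 spots fell within 10% of the split in NV replicate 1, NV replicate 2 and V replicate 2. The marker-low spots nearest to the split were at 13706, 13704 and 13717 CPM, and the nearest parenchyma spots at 13840, 14136 and 13894. Sftpc, which dominated the sum, was at 7906 CPM in marker-low and 29613 CPM in parenchyma spots of NV replicate 1, 4831 and 24778 CPM in NV replicate 2 and 6599 and 25609 CPM in V replicate 2, after TMM scaling, a library scaling that equalizes the bulk of genes. Below, levels of genes and lists in the 6 sums are such scaled CPM, and CPM without this scaling are called plain. The corresponding values were 363 and 829.8, 281 and 944, and 295 and 973 CPM for Hopx. These values chose the zones and were not tested.

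**Figure D1:**
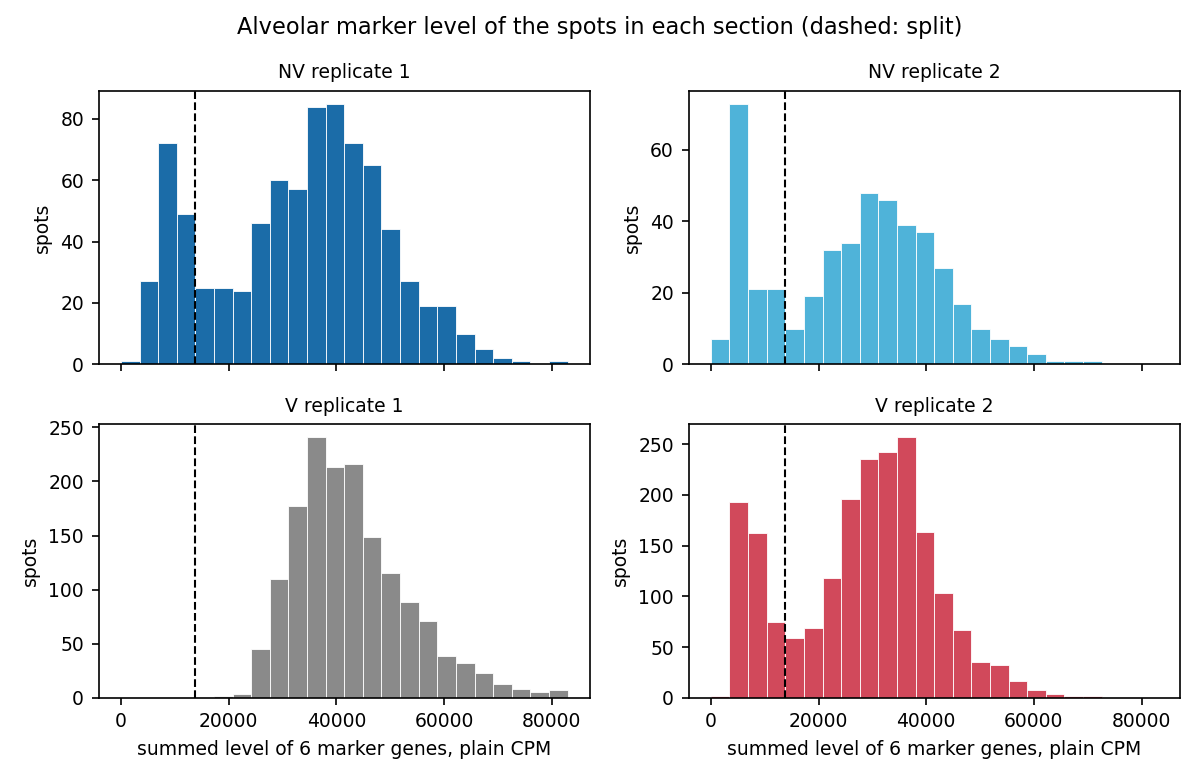
Histograms of the summed level of the 6 alveolar marker genes per spot (x axis, plain CPM) for the 4 sections (y axis, number of spots with at least 500 UMIs). The dashed line is the split at 13824 CPM, and V replicate 1 has 0 spots to its left.

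Summed over spots, marker-low and parenchyma zones held 2170870 and 7210673 UMIs in NV replicate 1, 3188211 and 3765903 UMIs in NV replicate 2, and 15638121 and 18666503 UMIs in V replicate 2. A marker-low spot held a median of 8983 UMIs in NV replicate 1, 23219.5 in NV replicate 2 and 33016 in V replicate 2, while parenchyma spots held 9958, 9582 and 9110. Marker-low spots were thus the deeper ones in NV replicate 2 and V replicate 2 but not in NV replicate 1. From 277 to 1167 barcodes, which name positions on the slide, were shared between pairs of sections, as any pair of slides shares positions.

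Marker-low spots were higher than the parenchyma in genes of cardiac muscle, fat, smooth muscle and club cells and in mitochondrially encoded genes, and lower in T cell genes and in the alveolar genes tied to the split. Of 13416 genes tested, edgeR's quasi-likelihood test on the 6 sums with section as a block called 5531, or 41.2%, taking a gene as called where its p, adjusted by Benjamini-Hochberg over all genes, was under 0.05 and its log2 difference exceeded 0.25 in size. Of these, 3024 (22.5% of the genes tested) were higher and 2507 (18.7%) lower in marker-low spots. The median log2 difference, marker-low minus parenchyma, was -0.029 over all genes. With scaling to total UMIs in place of TMM this median was -0.50, and 1754 genes were called higher and 7364 lower, so that 19.2% of calls were higher in place of 54.7%. All 1754 were among the 3024, and 0 of the 3024 were called lower under it. An exact permutation test over 3 pairs cannot give a two-sided p below 0.25, so the tests are those of the fit across all genes.

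The 10 genes with the largest log2 difference among those called, higher in each section and at 50 CPM or more, were Lmod2, Gm31659, Car3, Mt3, Ttn, Hspb7, Tmem45b, Cox8b, Corin and Cox7a1, with log2 differences from 2.92 to 3.24. Lmod2, which helps to assemble the thin filaments of striated muscle, was at 126 CPM in marker-low and 7.63 CPM in parenchyma spots of NV replicate 1, 64.0 and 3.18 CPM in NV replicate 2 and 43.6 and 9.17 CPM in V replicate 2. Ttn, the giant elastic protein of the sarcomere, was at 1906 CPM in marker-low and 163 CPM in parenchyma spots of NV replicate 1, 990.4 and 86.4 CPM in NV replicate 2 and 756 and 179 CPM in V replicate 2, and Hspb7, a small heat shock protein of heart and skeletal muscle, at 540.2, 331 and 186 CPM in marker-low spots and at 34.5 to 47.1 CPM in the parenchyma. Corin is the protease that activates the natriuretic peptide of the atrium, Car3 a carbonic anhydrase abundant in adipocytes, and Cox8b and Cox7a1 subunits of cytochrome c oxidase used by heart and brown fat. For all 10 the lowest marker-low value was above the highest parenchyma value. The 10 lowest were Igfbp2, Sftpd, Hc, Cxcl15, Scnn1g, Slc34a2, Mal2, Lamp3, Bex4 and Egfl6, most of them alveolar epithelial genes, from -1.83 to -2.31.

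**Figure D2:**
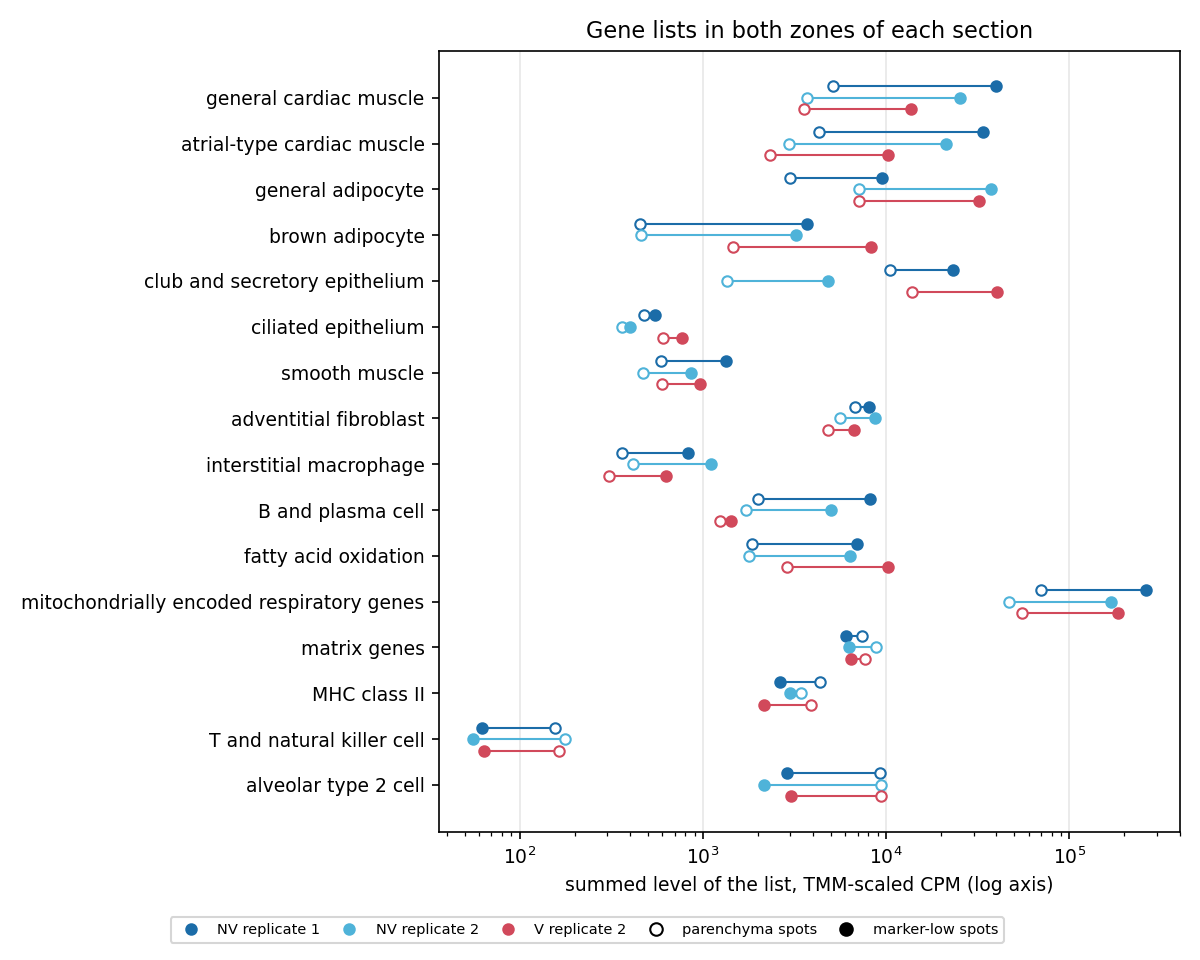
Summed level of 16 gene lists (x axis, TMM-scaled CPM, log axis) in marker-low spots (filled) and parenchyma spots (open) of the 3 sections, joined within a section. Cardiac, adipocyte, fatty acid oxidation and mitochondrially encoded lists lie to the right in marker-low spots of each section, and T cell and alveolar type 2 lists to the left.

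Cardiac muscle lists were among those with the largest log2 differences, next to the brown adipocyte list given below. All 20 general cardiac genes and 8 of 9 atrial genes tested were higher in marker-low spots, with median log2 differences of 2.55 and 2.59 against -0.029 over all genes. The summed level of the general list was 39557 CPM in marker-low against 5159 CPM in parenchyma spots of NV replicate 1, 25357 against 3700.0 CPM in NV replicate 2 and 13638 against 3566 CPM in V replicate 2, highest in NV replicate 1 and lowest in V replicate 2. Myl7, the regulatory myosin light chain of the atrium, encoded on the minus strand at chr11:5896637-5898782 (GENCODE vM21, build GRCm38), was at 12772 CPM in marker-low and 1413 CPM in parenchyma spots of NV replicate 1, 8119 and 964 CPM in NV replicate 2 and 3738 and 871 CPM in V replicate 2, a log2 difference of 2.79 (standard error 0.22, adjusted p = 1.31e-05). Nppa, the atrial natriuretic peptide (chr4:148000722-148002079), was at 3722 CPM in marker-low and 435 CPM in parenchyma spots of NV replicate 1, 2224 and 299 CPM in NV replicate 2 and 1108 and 205 CPM in V replicate 2, a log2 difference of 2.81 (standard error 0.16, adjusted p = 6.36e-06). Each marker-low value of both genes was above every parenchyma value.

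The same held for Myl4 and Sln, the essential light chain of the atrium and the atrial regulator of the calcium pump, with log2 differences of 2.59 and 2.51. Among general genes, Myh6, the main myosin heavy chain of the adult mouse heart, was at 7687 CPM in marker-low and 968 CPM in parenchyma spots of NV replicate 1, 5714 and 779 CPM in NV replicate 2 and 2874 and 785 CPM in V replicate 2, a log2 difference of 2.58 (standard error 0.22, adjusted p = 1.87e-05). Actc1 (cardiac actin), Tnni3 (cardiac troponin I) and Tnnt2 (cardiac troponin T) had log2 differences of 2.48, 2.85 and 2.48, with standard errors from 0.18 to 0.22. Ventricular markers were sparse. Myl2, the regulatory light chain of the ventricle, was counted at 1 UMIs in marker-low and 3 in parenchyma spots of NV replicate 1, 1 and 4 UMIs in NV replicate 2 and 4 and 4 UMIs in V replicate 2, and Irx4 was too sparse for the test. Myl3 was higher by a log2 difference of 2.11 (adjusted p = 4.61e-04), at 122 CPM in marker-low and 17.8 CPM in parenchyma spots of NV replicate 1, 77.2 and 10.5 CPM in NV replicate 2 and 28.7 and 13.9 CPM in V replicate 2. Myh7 did not pass the test (log2 difference 0.073, adjusted p = 0.861), though without V replicate 2 it did, with a log2 difference of 0.73. Of skeletal muscle genes, 1 of 5 tested was called higher, Atp2a1 (log2 difference 1.87), a share near the 22.5% of all genes. Its call ended without NV replicate 1, at 1.005, and none of its levels exceeded 17.8 CPM. Gja5, a connexin of the atrium that arterial endothelium also makes, was the atrial gene that was not called (log2 difference -0.081, called lower with total UMIs), and Bmp10 had too few UMIs to test.

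Promoters of the group were searched for the CArG box, the element bound by serum response factor, on both strands of the RefSeq windows from 250 bases before to 50 after the start of each gene (GRCm38.p6). It was found for 2 of 16 general cardiac genes with a window, for 1 of 8 atrial genes, Myl7, and for 1.81% of 27025 genes. Of smooth muscle genes, 0 of 7 held it. The MEF2 motif was in 3 of 16 general cardiac and 0 of 8 atrial promoters against 3.70% of all. It was also in 2 of 11 AT1 and 2 of 11 immediate-early promoters. The CArG box was likewise in 2 of 15 promoters of xenobiotic enzymes and 1 of 11 AT1 promoters. Most other lists held neither motif. These counts are small and do not set cardiac genes apart from all other lists. The GATA motif AGATAA was in 3 of 8 atrial and 2 of 16 general cardiac promoters against 12.7% of all. A match is a description of the letters and not a bound site. The boxes of Actc1 and Myl7, members whose values are given above, are shown in capitals, 5′ to 3′ on the minus strand, on which both genes lie. The Actc1 stretch is chr2:114052876-114052962 and its box ends 38 bases before the start. The Myl7 stretch is chr11:5898794-5898883 and its box ends 52 bases before the start.
Actc1: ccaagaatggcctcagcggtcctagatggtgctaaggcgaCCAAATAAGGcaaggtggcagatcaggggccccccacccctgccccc
Myl7: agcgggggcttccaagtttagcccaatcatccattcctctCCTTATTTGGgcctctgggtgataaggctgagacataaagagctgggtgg

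Adipocyte genes were also higher, in each of the 3 sections, while the markers of brown fat were unevenly spread over them. All 14 general adipocyte genes were called higher (median log2 difference 2.25), and the list stood at 9510.3 CPM in marker-low against 2982 CPM in parenchyma spots of NV replicate 1, 37159.6 against 7137 CPM in NV replicate 2 and 31926 against 7144 CPM in V replicate 2. Cfd, the serine protease adipsin that adipocytes secrete, was at 1748 CPM in marker-low and 290.2 CPM in parenchyma spots of NV replicate 1, 11477 and 1564 CPM in NV replicate 2 and 9203 and 1791 CPM in V replicate 2, a log2 difference of 2.61 (standard error 0.16, adjusted p = 6.56e-06). Scd1, which makes monounsaturated fatty acids, was at 3231 CPM in marker-low and 1772 CPM in parenchyma spots of NV replicate 1, 10802 and 3143 CPM in NV replicate 2 and 9487 and 2804 CPM in V replicate 2, a smaller log2 difference of 1.47. Car3 and Thrsp, a lipogenic factor, had log2 differences of 3.08 and 2.80. The marker-low spots of NV replicate 1 were the leanest, with Cfd levels that lay among the parenchyma values of the other sections.

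All 11 brown adipocyte genes tested were called higher too (median 2.63; 10 with total UMIs), and 10 of them were higher in each section. The defining gene Ucp1, the uncoupling protein that makes brown fat produce heat, was however counted at 0 UMIs in marker-low and 1 in parenchyma spots of NV replicate 1, 6 and 1 UMIs in NV replicate 2 and 24173 and 5309 UMIs in V replicate 2. It did not pass the filter on low counts and has no test. In V replicate 2 it stood at 1546 plain CPM in marker-low and 284 in parenchyma spots, whereas a count of 0 allows up to 1.38 plain CPM in the marker-low spots of NV replicate 1. Elovl3, which lengthens fatty acids in brown fat, was counted at 0 UMIs in marker-low and 0 in parenchyma spots of NV replicate 1, 4 and 2 UMIs in NV replicate 2 and 1601 and 389 UMIs in V replicate 2. Cidea, a lipid droplet protein of brown fat, was at 24.7 CPM in marker-low and 3.32 CPM in parenchyma spots of NV replicate 1, 77.6 and 7.04 CPM in NV replicate 2 and 1144 and 196 CPM in V replicate 2. The members that carried the list in the NV sections, Cox8b and Cox7a1, are also made by the heart. Cox8b was at 1427 CPM in marker-low and 144 CPM in parenchyma spots of NV replicate 1, 1307 and 151 CPM in NV replicate 2 and 2667 and 482 CPM in V replicate 2, and Cox7a1 at 1969 CPM in marker-low and 202 CPM in parenchyma spots of NV replicate 1, 1335 and 166 CPM in NV replicate 2 and 1702 and 304 CPM in V replicate 2. Across the marker-low spots of a section, the brown list followed the general cardiac list in NV replicate 1 and NV replicate 2 (Spearman's rho 0.56 over 149 and 0.80 over 122 spots) but not in V replicate 2 (-0.25 over 432 spots). Such spots share their library and depth, and no test was made. In the NV sections the defining marker Ucp1 was thus at or near 0, and only V replicate 2 held it in quantity.

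Genes of energy metabolism were higher in marker-low spots. All 13 mitochondrially encoded respiratory genes were called higher, with log2 differences from 1.60 to 2.07, and they took 21.0%, 14.8% and 15.4% of all UMIs in marker-low spots against 7.89%, 5.45% and 6.12% in the parenchyma of NV replicate 1, NV replicate 2 and V replicate 2. A high mitochondrial share is also read as a sign of RNA quality, and its part in the results was not tested. With mitochondrial genes left out of the sums, 5559 genes were called. Of 20 genes of fatty acid oxidation 19 were higher (median 1.82), among them Hadhb, a subunit of the mitochondrial trifunctional protein, at 523 CPM in marker-low and 149 CPM in parenchyma spots of NV replicate 1, 576 and 163 CPM in NV replicate 2 and 1155 and 302 CPM in V replicate 2. Etfb, which passes electrons from the dehydrogenases to the respiratory chain, and Acaa2, a thiolase, had log2 differences of 1.95 and 1.42. The 1 that was lower was Cpt1a, the liver-type enzyme that loads fatty acids for import, at -0.54.

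Pairs of isoforms with tissue-specific use were compared within sections. Cpt1b, the muscle counterpart of Cpt1a, was higher by a log2 difference of 2.74 (adjusted p = 5.25e-06), at 125 CPM in marker-low and 15.1 CPM in parenchyma spots of NV replicate 1, 85.4 and 11.8 CPM in NV replicate 2 and 166 and 30.2 CPM in V replicate 2. Cpt1a was at 52.3 CPM in marker-low and 84.3 CPM in parenchyma spots of NV replicate 1, 56.8 and 80.7 CPM in NV replicate 2 and 51.4 and 71.3 CPM in V replicate 2. The pair thus moved in opposite directions in all 3 sections. Atp2a2, the calcium pump of cardiac muscle, and Atp2a3, a pump of other cells, did so too, with log2 differences of 2.29 and -1.15. For cytochrome c oxidase, the heart isoforms Cox6a2, Cox7a1 and Cox8b had log2 differences of 2.47, 2.92 and 2.96, and Cox6a1, Cox7a2 and Cox8a, used in other tissues, of 1.04, 1.70 and 1.26. Slc25a4 and Slc25a5, which exchange ADP and ATP across the inner membrane, were at 2.34 and 0.79, and Fabp3 and Fabp5, fatty acid carriers of heart and of epidermis, at 2.54 and 0.22. Fabp5 did not pass the test, except without NV replicate 1, where its log2 difference was 0.69. In 7 of the 8 pairs in which both members were tested, the muscle or fat isoform had the larger log2 difference in each section. In the pair Myl4 and Myl3 the order turned in NV replicate 2, at 2.73 and 2.86. Differences between members of a pair were not tested.

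**Figure D3:**
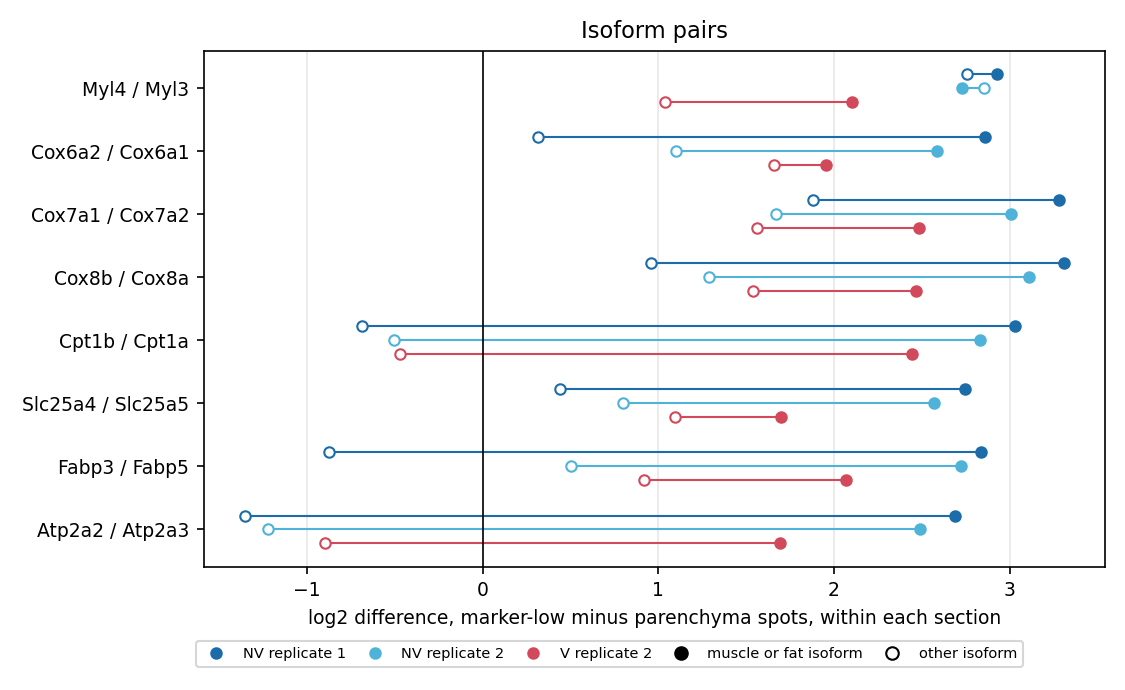
Log2 difference, marker-low minus parenchyma spots (x axis), of the 2 members of 8 isoform pairs in each section. Filled points are the muscle or fat isoform and open points the other one. Filled points lie to the right in each section, except for Myl4 and Myl3 in NV replicate 2.

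Club cell transcripts were higher in sum, and most of their UMIs lay in the richest 10% of marker-low spots. Of 13 club and secretory genes tested 12 were called higher (median log2 difference 1.99). Scgb1a1, the secretoglobin of club cells (chr19:9083636-9087958, GRCm38), was at 21322 CPM in marker-low and 9780.4 CPM in parenchyma spots of NV replicate 1, 3658 and 1006 CPM in NV replicate 2 and 17546 and 8021 CPM in V replicate 2, a log2 difference of 1.37 (standard error 0.19, adjusted p = 3.39e-04). NV replicate 2 was the low section in both zones. Bpifa1, a secreted antimicrobial protein of larger airways, was at 532 CPM in marker-low and 67.9 CPM in parenchyma spots of NV replicate 1, 75.1 and 34.5 CPM in NV replicate 2 and 13757 and 3683 CPM in V replicate 2. Scgb3a2 and Scgb3a1, further secretoglobins, had log2 differences of 2.09 and 2.20, and Cyp2f2, the club cell cytochrome P450, of 1.58. The median marker-low spot held no more of the club list than the median parenchyma spot, at 4728 against 8813 plain CPM in NV replicate 1, 1358 against 1550.5 in NV replicate 2 and 11778 against 11870.0 in V replicate 2, and the richest 10% of marker-low spots held 83.1%, 75.7% and 62.7% of its UMIs. With the split at 25% of the marker level the calls ended for Scgb1a1, Bpifa1, Scgb3a2 and Cyp2f2, at 0.069, 0.54, 0.72 and 0.33.

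Of 11 ciliated genes tested 9 were higher (7 with total UMIs) and 2 lower (median 1.42), and the summed level differed little between zones, at 549 CPM in marker-low against 478 CPM in parenchyma spots of NV replicate 1, 399 against 364 CPM in NV replicate 2 and 773 against 609 CPM in V replicate 2. The 2 that were lower, a share near the 18.7% of all genes, are those with the most UMIs: Tppp3, a tubulin-binding protein, with a log2 difference of -0.35 (adjusted p = 0.0442), and Sec14l3, with -1.15 (adjusted p = 0.00415). The call of Tppp3 ended without any 1 of the 3 sections, at -0.29, -0.47 and -0.30. Mlf1 had the largest log2 difference of the list, 2.76, at 236 CPM in marker-low and 27.3 CPM in parenchyma spots of NV replicate 1, 106 and 11.6 CPM in NV replicate 2 and 87.8 and 19.4 CPM in V replicate 2. Among marker-low spots it was highest in NV replicate 1 and lowest in V replicate 2. That is the order of the general cardiac list and not of the summed ciliated list, and which cells held Mlf1 was not tested. Dynlrb2, a dynein light chain of motile cilia, was higher by 0.90, but not without V replicate 2 (0.55) or with total UMIs (0.43).

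Promoters of ciliated genes were searched for the X-box, the element of RFX factors, which switch on genes of motile cilia. It was present for 4 of 11 ciliated genes with a window and for 2.53% of all 27025 genes. The DR1 element of PPAR factors, a direct repeat of AGGTCA with 1 base between the copies, was in 13 promoters in all. The X-boxes of Dynlrb2 (plus strand, chr8:116504924-116505014) and of 1110017D15Rik (minus strand, chr4:41507765-41507822; log2 difference 1.42) are in capitals below, 5′ to 3′ on the strand of the gene. Coordinates and letters are those of RefSeq on GRCm38.p6.
Dynlrb2: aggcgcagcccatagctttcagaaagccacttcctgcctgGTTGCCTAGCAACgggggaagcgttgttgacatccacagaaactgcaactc
1110017D15Rik: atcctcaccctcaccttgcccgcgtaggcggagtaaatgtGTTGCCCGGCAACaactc

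Markers of the largest airways were sparse in the NV sections, which were also sequenced to fewer UMIs than V replicate 2. Krt5, the keratin of basal cells, was counted at 0 UMIs in marker-low and 0 in parenchyma spots of NV replicate 1, 0 and 0 UMIs in NV replicate 2 and 121 and 41 UMIs in V replicate 2. Trp63, the transcription factor of basal cells, was counted at 5 UMIs in marker-low and 13 in parenchyma spots of NV replicate 1, 4 and 2 UMIs in NV replicate 2 and 76 and 30 UMIs in V replicate 2, which is 2.30 and 1.80, 1.25 and 0.531, and 4.86 and 1.61 plain CPM. Sox2, the factor of the proximal airway, was counted at 3 UMIs in marker-low and 12 in parenchyma spots of NV replicate 1, 2 and 0 UMIs in NV replicate 2 and 271 and 93 UMIs in V replicate 2. Of the 2 basal genes tested, Krt15 and Ngfr were both called higher, at log2 differences of 1.85 and 2.24, Ngfr also being a receptor of Schwann cells. Both calls ended with the split at 25% of the marker level, at 0.225 and 0.66. Krt15 had from 1 to 10 UMIs in the 4 NV sums, too few to compare there, against 511 and 212 in V replicate 2, whereas Ngfr was at 10.3 and 9.65 CPM in the marker-low spots of the NV sections and 4.12 CPM in those of V replicate 2. Neuroendocrine Scg5 and Resp18 were higher by 1.49 and 2.36 at levels of at most 6.08 CPM, and without NV replicate 2 the call of Scg5 ended (1.34). Cartilage markers were sparse too. Col2a1, the collagen of cartilage, was counted at 0 UMIs in marker-low and 2 in parenchyma spots of NV replicate 1, 0 and 0 UMIs in NV replicate 2 and 108 and 91 UMIs in V replicate 2. Cytl1, a cartilage-associated cytokine-like protein, was called higher (1.05), at 65.5 CPM in marker-low and 25.2 CPM in parenchyma spots of NV replicate 1, 19.3 and 12.5 CPM in NV replicate 2 and 216 and 107 CPM in V replicate 2. Its call ended with the split at 25% of the marker level, at 0.30. V replicate 2 was also the deepest section, with 34308556 UMIs in all.

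Genes of smooth muscle, which lies in airway and vessel walls, were higher in marker-low spots for 9 of 10 members (8 with total UMIs) and lower for 1 (median 1.28). Acta2, smooth muscle actin, was at 279 CPM in marker-low and 102 CPM in parenchyma spots of NV replicate 1, 189 and 65.9 CPM in NV replicate 2 and 253 and 111 CPM in V replicate 2, a log2 difference of 1.38 (standard error 0.11, adjusted p = 1.47e-05). Tagln, an actin-binding protein, had a log2 difference of 1.12, and Des, the muscle intermediate filament desmin, which cardiac muscle also makes, of 1.89. Mylk, the kinase of the myosin light chain, was the 1 that was lower, at -1.10. In bulk sums such as these, fewer cells of a type and less RNA per cell cannot be told apart. Across marker-low spots, the smooth muscle and general cardiac lists ran together, with Spearman's rho of 0.37, 0.68 and 0.67 in NV replicate 1, NV replicate 2 and V replicate 2 (149, 122 and 432 spots, no test).

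Genes of adventitial fibroblasts, which wrap large vessels and airways, were higher for 12 of 14 members and lower for 1 (median 1.25), or for 9 and 2 with total UMIs. Dcn, the small proteoglycan decorin, was at 1324 CPM in marker-low and 288 CPM in parenchyma spots of NV replicate 1, 1196 and 339 CPM in NV replicate 2 and 1216 and 297 CPM in V replicate 2, a log2 difference of 2.02 (standard error 0.13, adjusted p = 6.56e-06). Igfbp4 and Fbln1 were higher by 1.02 and 1.10, whereas Gsn, the member with the most UMIs, was not called (0.036) and was called lower with total UMIs (-0.44). Of 20 matrix genes 5 were higher and 8 lower, where 22.5% and 18.7% of all genes were, and with total UMIs 1 was higher and 11 lower. Col3a1, a fibrillar collagen, was higher (0.73), while Mgp, Sparc and Bgn were lower, at -0.53, -0.49 and -0.49. Those 3 calls ended without NV replicate 2, at -0.39, -0.51 and -0.41.

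Nerve and Schwann cell genes were mostly higher, with 10 of 13 higher and 2 lower (median 2.05). The 3 members with the most UMIs did not follow the rest: Scn7a and Stmn2 were lower (-0.83 and -0.66), and Mbp was not called (0.27). Uchl1, a neuronal ubiquitin hydrolase, was higher (2.04), at 64.9 CPM in marker-low and 10.2 CPM in parenchyma spots of NV replicate 1, 76.1 and 19.1 CPM in NV replicate 2 and 27.9 and 9.12 CPM in V replicate 2. With the split at 25% of the marker level its call ended, at 0.53. The summed list was at 461 CPM in marker-low against 417 CPM in parenchyma spots of NV replicate 1, 468 against 389.6 CPM in NV replicate 2 and 333 against 395 CPM in V replicate 2. Large vessel endothelium had 5 genes lower (7 with total UMIs) and 1 higher of 10 (median -0.48), with Vwf not called (-0.17) but called lower without NV replicate 1 (-0.47). Efnb2, an arterial ephrin, and Slc6a2 were lower, at -1.44 and -1.71, and the 1 that was higher was Ackr1, a receptor of venules (1.79). Lymphatic genes were lower for 3 of 6, Lyve1, the hyaluronan receptor, at -0.76, and higher for Prox1 (1.61), the master factor of lymphatic vessels, which cardiac muscle cells also make. Ackr1 and Prox1 were singled out after their values were seen. Of 8 mesothelial genes 4 were higher and 1 lower (median 0.56), and with total UMIs 1 was higher and 3 lower. Over all genes tested, 22.5% were higher and 18.7% lower. The shares of higher large vessel and lymphatic genes, and of lower nerve and mesothelial genes, lay near or under these.

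Immunoglobulin transcripts were concentrated in a few marker-low spots. Of 16 B and plasma cell genes, 3 were higher, 4 lower and 9 not called, shares near the 22.5% and 18.7% of all genes, and with total UMIs 2 were higher and 8 lower. Jchain, which joins IgA and IgM chains in plasma cells, was at 768 CPM in marker-low and 88.7 CPM in parenchyma spots of NV replicate 1, 300.2 and 47.7 CPM in NV replicate 2 and 119 and 35.7 CPM in V replicate 2, a log2 difference of 2.50 (standard error 0.23, adjusted p = 2.49e-05). Ighm and Igkc, the constant regions of IgM and of the kappa light chain, were higher by 1.46 and 1.15, but without NV replicate 2 both calls ended, at 1.19 and 1.40. Ighm was at 2191 CPM in marker-low and 471 CPM in parenchyma spots of NV replicate 1, 1907 and 497 CPM in NV replicate 2 and 233 and 209 CPM in V replicate 2. The 10% of marker-low spots richest in the list held 87.2% of its UMIs in NV replicate 1, 68.0% in NV replicate 2 and 48.4% in V replicate 2, against 26.9%, 27.5% and 34.3% in the parenchyma. The median marker-low spot held less of the list than the median parenchyma spot in each section, at 1034 against 2090.5, 1608 against 1948 and 704 against 1204 plain CPM.

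The macrophage lists differed in direction. All 8 interstitial macrophage genes were higher (7 with total UMIs; median 1.23), among them C1qa, the first component of the classical complement pathway, at 180.4 CPM in marker-low and 80.0 CPM in parenchyma spots of NV replicate 1, 278 and 112 CPM in NV replicate 2 and 134 and 74.4 CPM in V replicate 2, a log2 difference of 1.10 (standard error 0.12, adjusted p = 7.63e-05). Pf4 was higher by 1.31. Of 10 alveolar macrophage genes 7 were lower and 1, the mannose receptor Mrc1, was higher (0.69). Mrc1 was not called with total UMIs, at 0.22, nor with the split at 25% of the marker level, at 0.30. Chil3, a chitinase-like protein of alveolar macrophages, was at 44.8 CPM in marker-low and 145 CPM in parenchyma spots of NV replicate 1, 72.2 and 304 CPM in NV replicate 2 and 154 and 415 CPM in V replicate 2, a log2 difference of -1.72 (standard error 0.14, adjusted p = 1.54e-05). All 4 mast cell genes tested were higher (median 1.81), with Tpsb2 and Cpa3, mast cell proteases, at 2.09 and 1.96 and levels of at most 30.7 CPM for any member. With the split at 25% of the marker level the calls of Tpsb2 and Cpa3 ended, at 0.715 and 0.96. The richest 10% of marker-low spots held 100% of the 55 UMIs of the mast cell list in NV replicate 1. In NV replicate 2 and V replicate 2 they held 73.9% and 57.7%. T and natural killer cell genes were lower for 9 of 10 and higher for 0 (median -1.27), Gzma, the granzyme of cytotoxic cells, at -1.87 and Trbc2, a T cell receptor constant region, at -1.64. Neutrophil S100a8 and S100a9 were lower, at -1.70 and -1.60, and Mmp9 was higher, at 1.13. MHC class II genes were lower for 6 of 7, among them Cd74, the invariant chain, at -0.73. Adult globin genes were lower for the 4 named, between -0.88 and -0.62, and all 4 calls ended without NV replicate 2, with values from -0.53 to -0.29.

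Alveolar lists are tied to the split, since the same cells carry the genes of the rule, and are given as a description. AT1 genes were lower for 14 of 14 members, AT2 genes for 16 of 16, capillary genes for 12 of 12 and alveolar fibroblast genes for 7 of 9, with medians of -1.47, -1.71, -1.36 and -1.50. Ager, the receptor for advanced glycation end products on AT1 cells, was at 561 CPM in marker-low and 1716 CPM in parenchyma spots of NV replicate 1, 461 and 1642 CPM in NV replicate 2 and 808 and 2326 CPM in V replicate 2. Gpihbp1, which anchors lipoprotein lipase on capillaries and is also used in fat, was at -0.64 against -0.94 to -1.82 for Kdr, Cldn5 and Hpgd. Ces1d, a carboxylesterase of alveolar fibroblasts and also of adipocytes, was called higher (0.64), though not without NV replicate 2 (0.50) nor with total UMIs (0.16).

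Transcription factors of lung epithelium and mesenchyme were lower for 7 of 14 and higher for 3 (9 and 2 with total UMIs). Of all genes tested, 22.5% were higher and 18.7% lower. The shares of higher transcription factors, of higher signalling genes and of lower xenobiotic enzymes in this paragraph lay near these. Nkx2-1, the factor that marks lung epithelium, was at 50.0 CPM in marker-low and 141 CPM in parenchyma spots of NV replicate 1, 33.6 and 137 CPM in NV replicate 2 and 42.8 and 117 CPM in V replicate 2, a log2 difference of -1.63. Lung epithelial genes such as Nkx2-1 are tied to the split, which chose spots low in alveolar epithelial markers. Their lower values are given as a description. Etv5 of the lower transcription factors, and Vegfa and Wnt2 of the lower signalling genes, also belong to the alveolar lists. Tbx2 and Tbx3, of lung mesenchyme, were lower, at -1.67 and -1.26. The 3 that were higher, chosen after their values were seen, were Sox9 (2.39), which acts in cartilage and distal buds, Foxj1 (1.53), the master factor of motile cilia, and Tbx5 (0.87), which acts in both atrium and lung. Of 23 signalling ligands and antagonists 6 were higher and 12 lower (3 and 14 with total UMIs). Dkk3, related to Wnt antagonists, was higher by 1.52, and Vegfa, Fgf1 and Vegfd were lower, at -1.02, -0.69 and -0.69. Xenobiotic enzymes were split, with 10 of 20 higher and 5 lower (6 and 7 with total UMIs): Cyp2f2 was among the former and Fmo2, a flavin monooxygenase, was lower (-1.14). Immediate-early genes, which respond to handling of tissue among other stimuli, were lower for 6 of 13, Jun at -1.06, and higher for 1, Egr1, at 0.48, while with total UMIs 9 were lower and 0 higher. Egr1 was singled out after its value was seen.

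Of 10 genes listed here whose proteins the study labelled in tissue, 8 were tested, 1 was higher and 6 lower, where 22.5% and 18.7% of all genes were. Des was the higher one. Cdh1, the epithelial cadherin, was at 45.4 CPM in marker-low and 139.6 CPM in parenchyma spots of NV replicate 1, 24.3 and 109.8 CPM in NV replicate 2 and 56.7 and 112 CPM in V replicate 2, a log2 difference of -1.50. Lower values of Cdh1, an epithelial gene, and of Ager and Aqp5 of the AT1 list are tied to the split and are a description. Aqp5, a water channel of AT1 cells, Itgax, an integrin of alveolar macrophages, Cd9 and Tuba1a were lower, at -1.65, -1.37, -1.07 and -0.57, and Ager is given above. Vim, vimentin, was not called (-0.27), nor was Itgam, whose protein CD11b was also labelled but which is not among the 10 (0.34). Krt5 and Muc5ac, the mucin of goblet cells, had too few UMIs for the test, Muc5ac being counted at 1 UMIs in marker-low and 0 in parenchyma spots of NV replicate 1, 1 and 1 UMIs in NV replicate 2 and 13 and 5 UMIs in V replicate 2.

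The parenchyma spots of the 3 sections were not free of these transcripts. The general cardiac list stood at 5816, 4325 and 3938 plain CPM in the parenchyma of NV replicate 1, NV replicate 2 and V replicate 2, and at 56.9 in V replicate 1, the section without marker-low spots. Myl7 was at 1594, 1126 and 962 plain CPM in those 3 and at 2.02 in V replicate 1, where 24 UMIs were counted. Among spots at 75% or more of the marker level, the list stayed nearly level within a section. In NV replicate 1 the cardiac list was at 5346, 5560.4 and 5829 plain CPM in spots at 75% to 100%, 100% to 150% and 150% or more of the marker level over all spots, in NV replicate 2 at 4371, 4279 and 4324, and in V replicate 2 at 4136, 3308 and 3281. Below the split it was at 39864, 24912 and 12461 plain CPM in spots under 25% of that level. What share of the parenchyma values came from other spots of the same section was not tested. The log2 differences of cardiac genes above are taken against that level and not against 0.

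Fat transcripts were level over the same range as well, at 2877, 7856 and 7218 plain CPM in spots at 100% to 150% of the marker level and 1468 in V replicate 1. From 75% of the marker level up, club cell transcripts were at 12620, 10578 and 9174 plain CPM in NV replicate 1. In V replicate 2 they were at 14088, 14234 and 12097 plain CPM. Their level was highest at intermediate marker levels in NV replicate 1 and V replicate 2, at 46208 plain CPM in spots at 50% to 75% of the level in NV replicate 1 and at 52371 in spots at 25% to 50% in V replicate 2, against 3131 and 19572 in spots under 25%. Airway epithelium thus lay on both sides of the split. In NV replicate 2 the list stayed between 1521 and 4638 plain CPM over all 6 ranges.

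**Figure D4:**
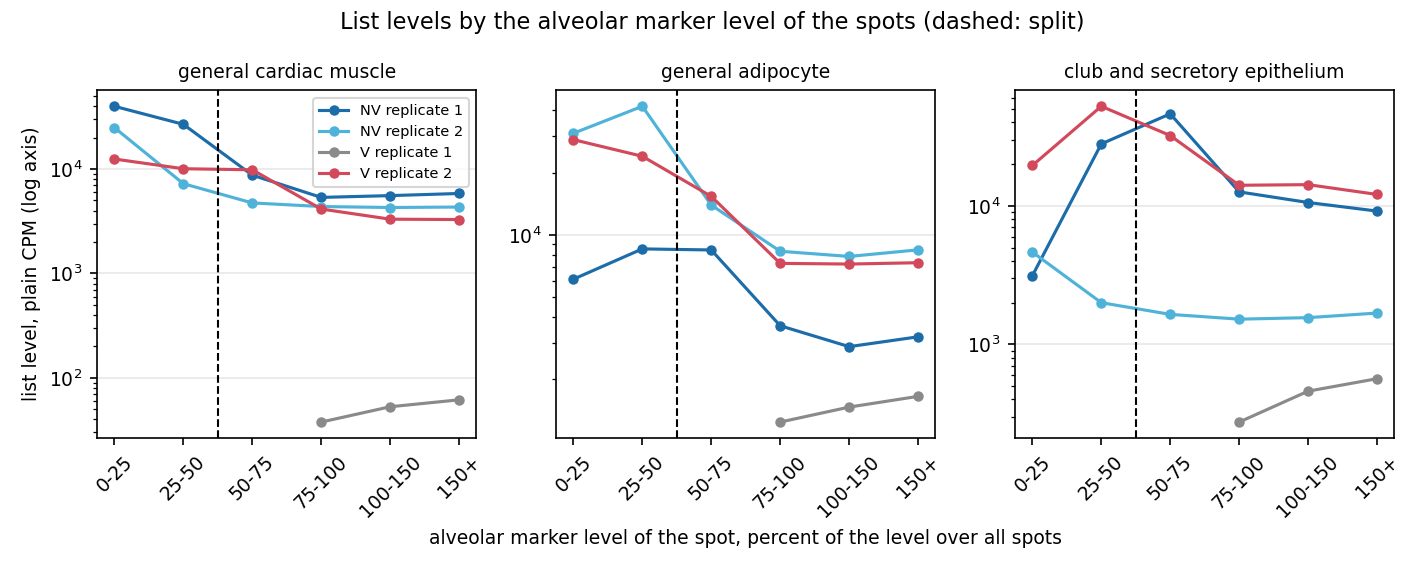
Level of 3 gene lists (y axis, plain CPM, log axis) in spots grouped by their alveolar marker level (x axis, percent of the level over all spots), for the 4 sections, with groups of under 20 spots left out. The dashed line is the split. Cardiac and adipocyte lists are nearly flat from 75% on and lie above V replicate 1, and the club cell list peaks near the split in NV replicate 1 and V replicate 2.

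Single marker-low spots differed in the lists they were high for. A spot was counted as high for a list when it exceeded the 99th percentile of the parenchyma spots of its own section. The general cardiac list was high in 77 of 149 spots of NV replicate 1 (exact 95% binomial interval 43.4% to 59.9%), 56 of 122 of NV replicate 2 (36.9% to 55.2%) and 120 of 432 of V replicate 2 (23.6% to 32.3%). The general adipocyte list was high in 13, 47 and 195 spots, and in 0, 5 and 5 spots together with the cardiac list. Club or ciliated lists were high in 4, 4 and 42 spots, with club thresholds of 60447, 3810.1 and 74473 plain CPM that the club-rich parenchyma spots set, and of these 0, 1 and 0 were also high for muscle or fat. The B and plasma cell list was high in 15, 21 and 17 spots, and 28.9%, 14.8% and 16.4% of marker-low spots were high for none of these lists. The intervals cover counting error only. Across marker-low spots, cardiac and general adipocyte lists ran against each other in each section (Spearman's rho -0.65, -0.39 and -0.58, no test), and so did the cardiac and club lists, at -0.49, -0.53 and -0.17. By this count the spots high for muscle, for fat and for epithelium were mostly separate ones, and in each section those high for epithelium were the fewest of the 3 kinds.

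Whether the zone difference was another in V replicate 2 than in the NV sections was tested as the interaction of zone and exposure, with V replicate 2 assumed to vary as the NV sections do and 1 residual degree of freedom. The difference was smaller in V replicate 2 for 7 of the 20 general cardiac genes, with Ttn, Myh6, Actc1 and Tnni3 among them. Sec14l3 of the ciliated list and Ltf, lactoferrin, of the club list went in opposite directions, with interactions of 1.35 and -1.58. Ltf had log2 differences of 3.65 in NV replicate 1, 0.85 in NV replicate 2 and 1.72 in V replicate 2. The value of V replicate 2 thus lay between those of the NV sections. In NV replicate 2, Ltf had only 12 UMIs in marker-low and 10 in parenchyma spots. Of 13416 genes, edgeR called 142 (1.06%), 56 with a coefficient above 0, that is more on the marker-low side in V replicate 2, and 86 below 0. With DESeq2 (Wald test) the count was 1, and 185 genes were under 0.05 before adjustment, against 1009 with edgeR. Without the section block edgeR called 0, with 253 under 0.05 before adjustment. The 5 most negative interactions were Gm47101, Gm49708, Mhrt, C130080G10Rik and 1700120C14Rik. Mhrt, a heart RNA antisense to Myh7, had log2 differences of 4.49 and 3.92 in the NV sections and 2.10 in V replicate 2, an interaction of -2.36 (standard error 0.61, adjusted p = 0.0295). C130080G10Rik, which starts 787 bases from Actc1 on the other strand, had 4.64 and 4.33 in the NV sections and 2.40 in V replicate 2. Whether counting used strand was not given in the sources used here, so reads of antisense partners may not be separable, for Mhrt as for Gm16136, which lies antisense to Grhl2. Ttn showed the same direction, with 3.54 and 3.52 in the NV sections and 2.08 in V replicate 2, and Myl7 with 3.18 and 3.07 in the NV sections and 2.10 in V replicate 2.

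The 5 most positive interactions were Gm16136, Vpreb3, Rassf9, Rnf186 and Tmem79. Rassf9, which acts in epithelial differentiation, had log2 differences of -2.23 and -0.90 in the NV sections and 0.64 in V replicate 2. Tmem79, a membrane protein of the epidermis and other epithelia, had -0.56 and -0.10 in the NV sections and 1.86 in V replicate 2, an interaction of 2.20 (standard error 0.46, adjusted p = 0.00429), the adjusted p-values being those of edgeR. Aldh1a1, a retinaldehyde dehydrogenase, had log2 differences of -0.81 and -1.30 in the NV sections and 0.42 in V replicate 2, and Ighm had 2.22 and 1.94 in the NV sections and 0.15 in V replicate 2. Igha, the constant region of IgA, went the other way, with -1.92 and -0.10 in the NV sections and 0.93 in V replicate 2. Ltf and Igha were singled out after their values were seen. The makeup of the marker-low spots differed between these sections, as given above for cardiac, fat and epithelial lists, and its part in the interaction was not tested.

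**Figure D5:**
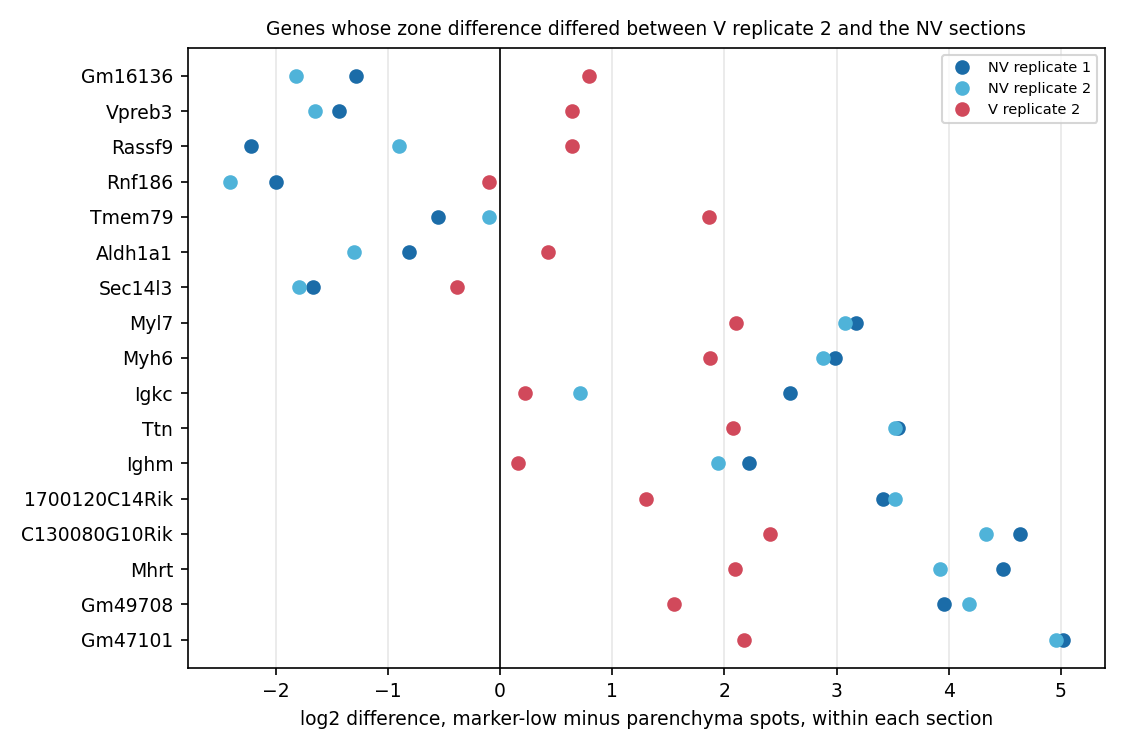
Log2 difference, marker-low minus parenchyma spots (x axis), in each of the 3 sections for 17 genes called in the interaction of zone and exposure (y axis). The points of V replicate 2 lie to the right of both NV points for the 7 genes at the top and to the left of both for the other 10.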

How the data were processed

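Spatial transcriptomes of 4 lung sections, 2 NV and 2 V, were analysed as UMI counts per gene and spot. The authors made these counts with Space Ranger against the mm10 reference of 10x Genomics and deposited them without normalization. The study's methods give version 1.2.2 of Space Ranger, and the submitters' processing notes also name Seurat 4.0.3. Tables held 32285 genes. Spots under 500 UMIs were left out, the remaining spots were split at 13824 CPM of the 6 marker genes, and counts were summed per section and zone into 6 sums. The members and all gene lists were chosen with earlier results of these data known.

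The 6 marker genes were left out of the tests. Genes passing filterByExpr were fitted in edgeR 4.0.16 (R 4.3.3) by its quasi-likelihood test after TMM scaling, with section as a block and 2 residual degrees of freedom, and called at an adjusted p under 0.05 and a log2 difference over 0.25 in size, thresholds taken from the study. Both zones of a section come from the same mouse, which is where the pairing comes from. The interaction of zone and exposure used the same sums. DESeq2 1.42.0 and limma 3.58.1 (mean CPM over spots, log2 with a pseudocount of 1) were alternatives, as were other scalings, filters, splits, thinning to 2153410 UMIs per sum and leaving out each section. Both count tools were tested on simulated data with 200 changed genes at a log2 change of 2. The changes were balanced between directions, all genes had the same variation between sums, and V replicate 2 varied as the NV sections did. In the sections 41.2% of genes were called between zones, a far larger share than was changed in the simulation. Its numbers of false calls therefore do not carry over to the calls of the sections. For the zone difference edgeR recovered 99.5% of them with 6 false calls, and DESeq2 94% with 2 false calls. For the interaction edgeR recovered 87% with 4 false calls, and DESeq2 41% with 0 false calls. Why the tools differed in the interaction calls of the sections was not tested.

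Genes named are the 6 of the rule, the 10 most changed in each direction among those called, of 1 direction in each section and at 50 CPM or more, up to 4 members of each of 38 lists by mean CPM, genes of 10 proteins the study labelled, 10 isoform pairs, and the 5 strongest interactions in each direction, with exceptions said in the text. Gene positions are from GENCODE vM21 and promoter windows from RefSeq, both on GRCm38. The limit a count of 0 allows is 3 UMIs of the total, and intervals and limits cover counting error only. Each section is 1 mouse, so p-values rest on 3 mice.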

Additional observations from a re-analysis of the deposited data

Results flagged for a closer look

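The results below differed between V replicate 2 and the NV sections in the interaction test of edgeR, called at the thresholds of the zone comparison with 1 residual degree of freedom. Each value is the interaction on the log2 scale, that is the zone difference of V replicate 2 minus that of the NV sections, and with 1 V section it cannot be told apart from that mouse or section. DESeq2 called 1 gene in all in the same comparison. Among genes of striated muscle the interaction was -1.885 for Lmod2, -1.455 for Ttn, -1.05 for Hspb7, -1.024 for Myl7, -1.061 for Myh6, -0.9301 for Actc1, -1.037 for Tnni3, -1.769 for Myl3, -0.9515 for Des and -0.8976 for Atp2a2. Slc25a4, the heart and muscle isoform of the ADP/ATP carrier, was at -0.9587, and Cox6a1 and Fabp5, isoforms not specific to heart, were at 0.9443 and 1.073. Gm31659 was at -1.491 and Mt3, a metallothionein, at -1.292.

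Genes of immunoglobulins differed in direction. They were at -1.441 for Igkc, -1.923 for Ighm and -1.162 for Jchain, and, singled out after their values were seen, at -1.80 for Iglc3 and 1.84 for Igha. Without NV replicate 2 the zone calls of Igkc and Ighm ended, and the richest 10% of marker-low spots held from 68.0% to 87.2% of the B and plasma cell list in the NV sections, as given above. Sec14l3, of ciliated cells, was at 1.354, Plet1, an epithelial surface protein that alveolar macrophages also make, at 1.158 and Aldh1a1 at 1.482.

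The strongest interactions in each direction were -2.946 for Gm47101, -2.67 for Gm49708, -2.358 for Mhrt, -2.299 for C130080G10Rik and -2.246 for 1700120C14Rik, and 2.554 for Gm16136, 2.239 for Vpreb3, 2.214 for Rassf9, 2.213 for Rnf186 and 2.205 for Tmem79. 1700120C14Rik overlaps Mcrs1 on the opposite strand, and reads of the 2 genes may not be separable.

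Matrix genes as a list had a median log2 difference of 0.00682 in V replicate 2 and of -0.20 and -0.11 in the NV sections, so that the sections lay on both sides of 0. That difference was not tested.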

How the results depend on the processing

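With total UMIs in place of TMM the median log2 difference of all genes went from -0.029 to -0.50, and 9118 genes were called between zones, 1754 higher and 7364 lower, and the interaction fell to 29 genes, 21 above and 8 below 0. With limma on mean CPM over spots 1408 genes were higher and 5515 lower, and with DESeq2's Wald test 1626 were lower. DESeq2 kept 4115 of the 5531 calls the same way and turned 0, and limma kept 3844 and turned 0. A log2 threshold of 1 left 2422 genes, 1662 higher and 760 lower. Without the replicate block, that is without the pairing of zones by section, 3907 genes were called between zones, each the same way as with it, and 0 in the interaction, 0 above and 0 below 0.

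Leaving out 1 section at a time gave from 4259 to 5871 called genes, of which from 1668 (without NV replicate 2) to 2534 (without NV replicate 1) were lower. The interaction could not be fitted with a section left out.

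The interaction gave 1 gene with DESeq2's Wald test, 0 above and 1 below 0. It gave 37 genes above 0 with the split at 25% of the marker level, 48 below 0 with the split at 75%, 39 (25 above and 14 below) without the spots between, 241 (167 below) with the split made without surfactant genes, and 77 (36 below) with sums thinned to the smallest.

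Of 176 named genes, from 140 (without the block) to 175 kept their direction and side of the threshold under each alternative. With the split at 25% of the marker level 154 of 175 did so, and the calls of 18 ended. Besides those given above, they included Igkc (0.51), Ighm (0.92), Scg5 (0.50) and Dynlrb2 (0.075). List medians moved with the shift of all genes under total UMIs, and relative to the median of all genes that of general cardiac genes was 2.58 with TMM and 2.57 with total UMIs. List medians also depended on the place of the split. A median counted as moved when it changed by at least the standard deviation of its section values. This held for 18 of 38 lists with the split at 25%, 14 of 36 without the spots between 25% and 75%, and 26 of 38 with limma. Reversed log2 differences were -0.50 for Mmrn1 and -0.107 for Upk3b with the split at 25%, -0.44 for Gsn and -0.34 for Gpm6a with total UMIs, where the median of all genes fell likewise, -0.36 for Gsn and -0.144 for Tmem79 with limma, and -0.32 for Tmem79 without V replicate 2, against 1.52 without NV replicate 1. The cause was not tested. Genes with fewer than 10 UMIs in a sum, as Ucp1 in the NV sections, cannot be compared there at this depth.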

Other observations

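V replicate 1, which entered no comparison for want of marker-low spots, held few cardiac, club cell and fat transcripts. Its 1561 parenchyma spots had 676 UMIs of the general cardiac list in all, and 24 of Myl7. The club list was at 509 plain CPM there against 11855, 1587 and 15194 in the parenchyma of NV replicate 1, NV replicate 2 and V replicate 2, and the general adipocyte list at 1557 against 3362, 8341 and 7889. Smooth muscle genes were at 525 against 666, 553 and 657, and endothelial lists were highest in V replicate 1, at 892 against 577, 667 and 592 for large vessels and 1114 against 449, 473 and 414 for lymphatics. Mitochondrially encoded genes took 5.10% of its UMIs, below the 5.45% to 7.89% of the other parenchyma zones.

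Ribosomal protein genes took 5.75%, 7.04% and 5.84% of UMIs in marker-low spots and 7.17%, 7.90% and 7.83% in parenchyma spots of NV replicate 1, NV replicate 2 and V replicate 2, the lower value being that of the marker-low spots in each section.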
